A study of Mus musculus with 9 samples.

Results

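Rhox5 is a homeobox gene of the X-linked reproductive homeobox cluster. It was chosen by its measured log2 ratios, which were far lower in tumours of the variant with raised histamine production than in those of the unmodified one. It is described beside 6 genes of the DNA methylation system, namely Dnmt1, Dnmt3a, Dnmt3b, Mbd2, Tet2 and Tet3. The members were found by their current symbols or synonyms in the annotation of the array, which gave 10 probes for 7 genes among 41174 distinct probes. Rhox5, Dnmt1, Dnmt3b, Mbd2 and Tet3 had 1 probe each, Tet2 had 2 and Dnmt3a had 3. The probes of Tet2 and Tet3 carried older names, those of cDNA clones, in the files.

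The RNA came from mouse melanomas grown from 3 variants of the B16-F10 line, which is a pigmented melanoma line of C57BL/6 origin. What sets the variants apart is the level of L-histidine decarboxylase (HDC), which turns histidine into histamine. The ability to make and release histamine is diminished in HDC-A, unmodified in HDC-M and enhanced in HDC-S. Each group had 6 tumours, combined at random into 3 pools of 2 tumours, and each pool was read on 1 array. The tumour RNA carried the red dye Cy5, and RNA of cultured HDC-M cells, the same reference on all 9 arrays, carried the green dye Cy3. How HDC was altered, and the strain and age of the host mice, are not given in the sources used here. Each group stands for 1 variant of the line, so line and histamine output cannot be told apart. Replicates 1 and 2 of every group were scanned on one day and replicate 3 of every group on another.

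DNA methylation at CpG dinucleotides is copied after replication by Dnmt1 and laid down on unmethylated DNA by Dnmt3a and Dnmt3b. Mbd2 binds methylated CpG and brings repressor complexes, and Tet2 and Tet3 oxidise the methyl group, which is a step towards its removal. Rhox5, also called Pem, is normally active in the testis, the epididymis, the ovary and the placenta and is silenced by promoter methylation in most other cells. Its transcription in many tumour lines, and its return after loss of Dnmt1 or treatment with demethylating drugs, have made it a common reporter of lost methylation. DNA methylation itself was not measured in these tumours.

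Since methylation sits on CpG, the DNA just before the listed start of the gene is shown for Rhox5 and, for contrast, for Dnmt3b, whose window is rich in CpG. Both are the 250 bases before the transcription start listed by RefSeq on GRCm38.p6, 5′ to 3′ on the plus strand, with each CpG in capitals. The Rhox5 window is chrX:37754358-37754607 and the Dnmt3b window is chr2:153649199-153649448.
Rhox5: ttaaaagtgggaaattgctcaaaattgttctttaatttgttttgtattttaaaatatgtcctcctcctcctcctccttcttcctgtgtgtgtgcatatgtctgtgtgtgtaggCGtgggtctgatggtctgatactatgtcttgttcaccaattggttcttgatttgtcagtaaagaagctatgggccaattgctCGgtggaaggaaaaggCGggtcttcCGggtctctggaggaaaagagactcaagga
Dnmt3b: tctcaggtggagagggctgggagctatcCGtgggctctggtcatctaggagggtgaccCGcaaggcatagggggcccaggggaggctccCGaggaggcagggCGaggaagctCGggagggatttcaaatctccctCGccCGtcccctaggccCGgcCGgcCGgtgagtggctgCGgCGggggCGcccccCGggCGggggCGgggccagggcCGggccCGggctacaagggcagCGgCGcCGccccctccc
The Rhox5 window holds 4 CpG and has 42.8% G and C, and the Dnmt3b window holds 21 CpG and has 75.2%. The median over 32851 mouse windows of this length is 6 CpG, and 44.4% of them hold as few as Rhox5 or fewer. Of the other members, Tet2 has 51 CpG in its window and Tet3 has 17, while Dnmt1 and Dnmt3a each have 3 listed starts, with 2 to 26 and 15 to 40 CpG. Rhox5 can be transcribed from a proximal and a distal promoter, and which of them the listed start belongs to was not determined. The letters CCGGAA, a core sequence bound by ETS factors, were searched on both strands. They occur 1 time before Rhox5, on the strand opposite to the one printed and over the last of its 4 CpG, and occur in 12.03% of all windows. The letters GGGCGG, a core bound by Sp1, were searched in the same way and overlap a CpG wherever they occur. They are in 32.7% of all windows, 3 times in that of Dnmt3b and not in that of Rhox5. A match says only that the letters are there.

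Each value is the log2 of tumour pool over cultured reference, so that 0 means equal brightness in both. Brightness is also given as a multiple of the median negative control spot of the same array and dye, since a probe near 1 is close to background. The Cy5 channel was marked well above background at 58.0% to 69.7% of probe spots per array. The same mark was carried in the Cy3 channel by 98.1% of negative control spots and is not used for it. Across probes, the correlation of ratios between arrays of the same group was 0.899 to 0.950, and between arrays of different groups 0.862 to 0.922. Of 8 melanocyte markers, Mlana and Sox10 had no named probe, and the other 6 gave array means above 0 on all 9 arrays, with 0.34 on the lowest and 0.93 on the highest. Differences between groups were fitted with limma over all 9 arrays, and p-values were adjusted over the 26870 probes kept, with a threshold of 0.05.

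Rhox5 was bright in culture, and its ratio of tumour to culture differed between the groups. Dye and source cannot be told apart, so a ratio below 0 is given as a value only. The HDC-M pools, with unmodified histamine production, had log2 ratios of -1.19, -0.24 and -0.88. The HDC-A pools had -1.61, -1.96 and -2.06. The HDC-S pools had -2.50, -3.17 and -4.04. All 9 values were below 0, and the 3 groups did not overlap. Of all probes compared, 22.3% had groups apart in either direction in HDC-S against HDC-M. The share was 20.9% in HDC-A against HDC-M and 24.4% in HDC-S against HDC-A. For Rhox5 the order from high to low was HDC-M, HDC-A and HDC-S, so both modified variants lay below the unmodified one. The means were -0.77 ± 0.48 in HDC-M, -1.88 ± 0.24 in HDC-A and -3.24 ± 0.77 in HDC-S (SD, n = 3). The spread was widest in HDC-S, where the pools themselves covered more than 1 log2 unit. In bulk tumour RNA, fewer cells that express a gene and less RNA per cell cannot be told apart.

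**Figure D1:**
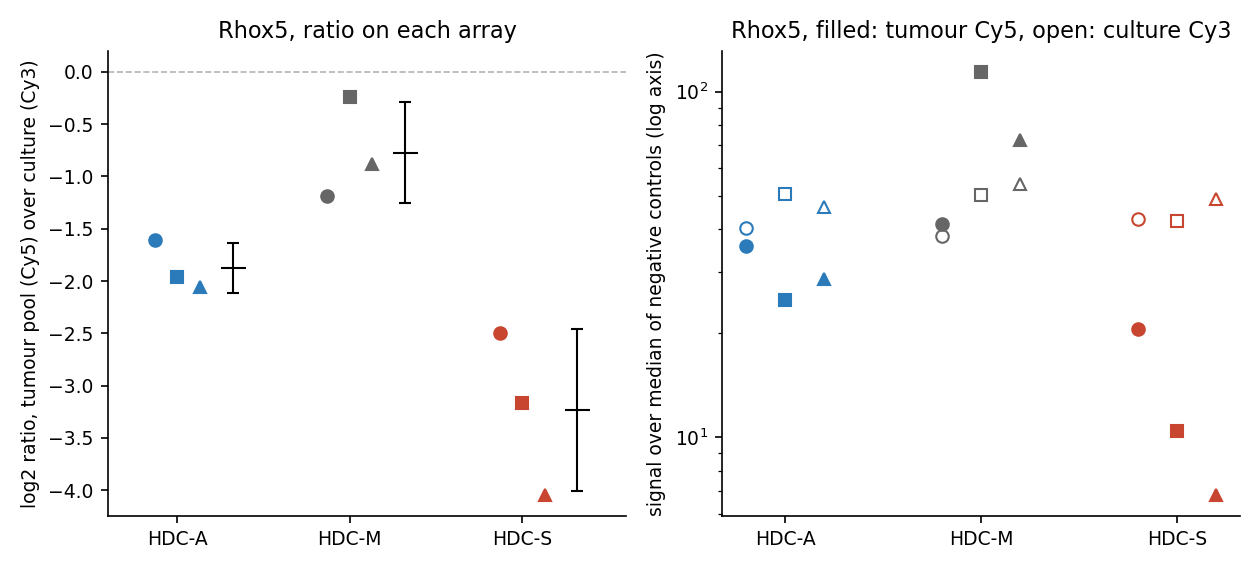
Rhox5 on each of the 9 arrays. Left, the log2 ratio of the tumour pool over the cultured reference, with each replicate as a point (circle, square and triangle for replicates 1, 2 and 3) and the group mean and SD beside it; right, the brightness of the same spots as a multiple of the median negative control on a log axis, with tumour filled and culture open. The ratios run from -4.04 in HDC-S to -0.24 in HDC-M, while the culture signal stays between 38.2 and 54.0.

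The raw brightness showed the same order without the reference. In the tumour channel the Rhox5 spot was 41.4, 114 and 72.4 times the median negative control in the HDC-M pools. The culture channel of those arrays was at 38.2, 50.2 and 54.0 times its own, so on this scale these pools were not dimmer than culture. In the HDC-A pools the tumour spot was 35.8, 24.9 and 28.8 times the median of its channel. In the HDC-S pools it was 20.6, 10.4 and 6.83 times that median, so that even the dimmest pool was clearly above background. The reference channel moved little, from 38.2 to 54.0 times its own negative controls, and no Rhox5 spot was saturated or marked as an outlier. The differences in ratio therefore lay in the tumour channel.

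The gene was chosen for its difference between HDC-S and HDC-M, which is given without a test. Rhox5 was 5.52-fold lower in HDC-S than in HDC-M tumours, a log2 difference of -2.46. This was the fifth lowest difference among 26868 probes compared. The 4 probes below it were those of Krt14 (-2.996), a keratin of basal keratinocytes, Lor (-2.73), a protein of the cornified envelope, and Cstdc6 (-2.72 and -2.59). Just above it were Krt10 (-2.35), Calm4 (-2.34) and Perp (-2.31). Of all probes tested, 0.681% passed in this comparison, 0.439% higher and 0.242% lower in HDC-S. These shares are background, and nothing is read from them for Rhox5 here. With 1 of the 9 arrays left out in turn, its difference was between -2.83 and -2.06.

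Among these neighbours, the reference signal was read for Krt14, Lor and Krt10, and not for Cstdc6, Calm4 and Perp. The Cy3 signal of Krt14 was 1.06 to 3.34 and that of Lor 0.908 to 1.28 times the negative controls. It was 1.04 to 2.04 for the Krt10 probe and 38.2 to 54.0 for Rhox5. All 8 keratinocyte markers were lower in HDC-S than in HDC-M, with a median of -1.54. All 8 were also lower in HDC-A than in HDC-M, with a median of -0.49. In HDC-S against HDC-A, 7 were lower and 1 higher, with a median of -1.35. None of the 8 markers was past the threshold in any of the 3 comparisons. Their mean log2 ratio was 3.04, 2.18 and 1.90 in the HDC-M pools, 2.09, 2.39 and 1.31 in the HDC-A pools and 0.092, 1.32 and 1.23 in the HDC-S pools. The part of skin tissue in the Rhox5 difference was not tested.

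HDC-A against HDC-M was not used to choose the gene and was tested, although it shares the HDC-M arrays with the comparison that was. Rhox5 was 2.15-fold lower in HDC-A, a log2 difference of -1.11 (SE 0.36, 95% interval -1.91 to -0.30). All 3 HDC-A pools lay below all 3 HDC-M pools, which was so for 10.7% of the 26866 probes compared. In limma the unadjusted p was 0.013 and the adjusted p was 0.173, so the difference did not pass the threshold. The exact two-sided permutation p was 0.1, which is the smallest that 3 against 3 arrays can give. Adjusted p-values below the threshold in that direction were found for 0.67% of probes. HDC-S against HDC-A shares the HDC-S arrays and is given as a description. Rhox5 was lower in HDC-S by a log2 difference of -1.36, with every HDC-S pool below every HDC-A pool. In that comparison 24.4% of probes had groups that did not overlap, and 11.1% had them apart with HDC-S lower. Of all probes, 2.84% passed as higher and 2.42% as lower.

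Within the first scan day alone, the Rhox5 difference was -2.12 for HDC-S against HDC-M, -1.07 for HDC-A against HDC-M and -1.05 for HDC-S against HDC-A. On the second day, with 1 array per group, the order was the same, with -0.88 in HDC-M, -2.06 in HDC-A and -4.04 in HDC-S. Since the 3 groups did not overlap, any subset of the arrays keeps this order. The split by day is thus a description and adds no support, and each day has too few arrays to carry a result of its own.

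Of the 9 probes of the 6 methylation genes, none passed in any of the 3 comparisons. Rhox5 did not pass either in HDC-A against HDC-M, the comparison in which it was tested. For HDC-S against HDC-M, limma called 0 of 9 probes, against the 0.681% of all probes that passed, and 1 of 9 had an unadjusted p below 0.05. For HDC-A against HDC-M it called 0 of 9, against 1.44% of all, and 2 of 9 had an unadjusted p below 0.05. For HDC-S against HDC-A it called 0 of 9, against 5.26% of all, and 0 of 9 had an unadjusted p below 0.05. With so few probes, 0 calls is close to these background shares. The median difference over the 9 probes was 0.015, 0.0016 and -0.027 in these comparisons, beside 0.0092, 0.0062 and 0.0045 over all probes. In each comparison the 9 intervals together reached from -0.33 to 0.47, from -0.34 to 0.42 and from -0.34 to 0.47, that is to 1.39-fold at most. These bounds hold on the ratio scale used here, and other processing placed several probes outside them. With scaling between arrays Dnmt1 lay at -0.38 in HDC-S and -0.43 in HDC-A against HDC-M. With median centring Mbd2 lay at -0.44 in HDC-A against HDC-M. With the authors' ratios Tet3 lay at -0.42 in HDC-S against HDC-M and Tet2 A_52_P502083 at 0.47 in HDC-A against HDC-M. With the same ratios Dnmt3b lay at 0.56 in HDC-S against HDC-A. Most of the 9 probes were dim, and the offset of 50 added in background correction pulls ratios of dim probes towards 0. Scaling between arrays and median centring kept this offset. The cause of the values outside the bounds was not tested.

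**Figure D2:**
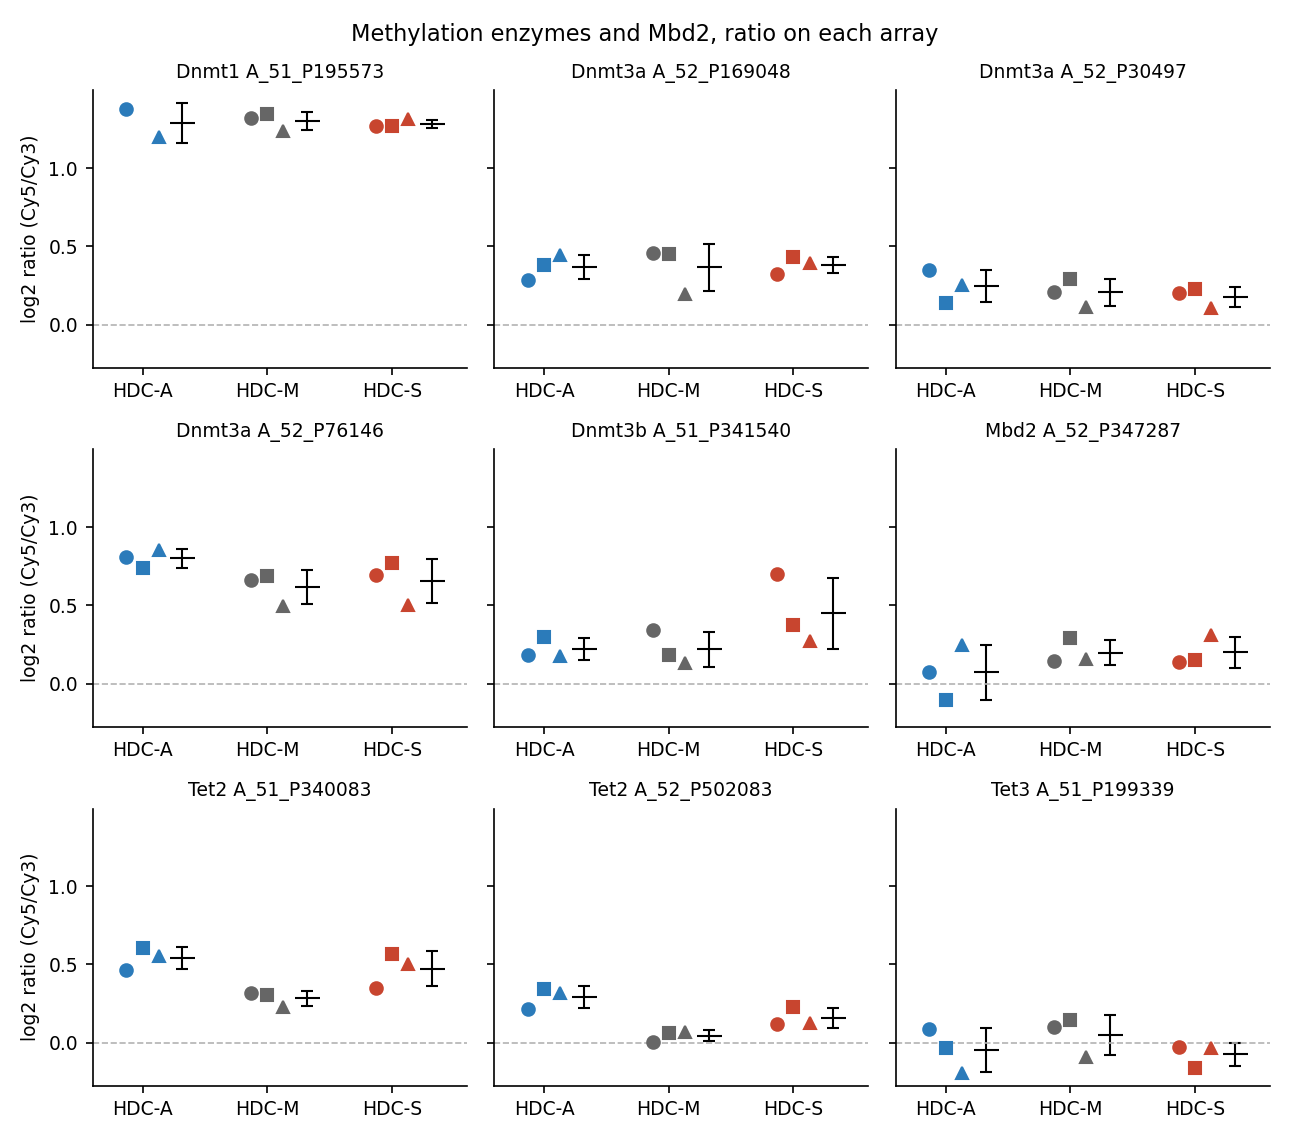
Log2 ratio of the tumour pool over the cultured reference for the 9 probes of the methylation genes, on 1 common vertical axis. Points are arrays (circle, square and triangle for replicates 1, 2 and 3) with the group mean and SD beside them; the 3 groups overlap in most panels, and both Tet2 panels show HDC-M lowest.

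Dnmt1, the maintenance methyltransferase, had the narrowest range over the arrays of the 9 probes after loess. Its log2 ratios were 1.32, 1.34 and 1.23 in HDC-M and 1.27, 1.27 and 1.31 in HDC-S. In HDC-A they were 1.38 and 1.20, since the spot of replicate 2 was marked as an outlier and left out. The 8 values lay within 0.18 log2 units, all above 0, and the groups overlapped. HDC-S differed from HDC-M by -0.018 (95% interval -0.17 to 0.13; limma adjusted p = 0.938), and HDC-A differed from HDC-M by -0.012 (-0.18 to 0.16; limma adjusted p = 0.960). HDC-S and HDC-A differed by -0.0062 (limma adjusted p = 0.980). The difference of HDC-S from HDC-M was -0.38 with scaling between arrays and -0.34 with median centring, and that of HDC-A from HDC-M was -0.43 and -0.26, with none of them past the threshold (limma adjusted p from 0.474 to 0.547). Its signal was 4.81 to 9.82 times the negative controls in the tumours and 1.22 to 1.93 times in culture. Dye and source cannot be told apart, so the brighter tumour signal is given as a value only.

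The de novo methyltransferase Dnmt3a was read by 3 probes, which are not replicates of a condition since they share the same RNA. On probe A_52_P76146 the ratios were 0.66, 0.69 and 0.49 in HDC-M, 0.81, 0.74 and 0.86 in HDC-A and 0.69, 0.77 and 0.50 in HDC-S. On this probe the HDC-A pools lay above the HDC-M pools, and HDC-S overlapped with both. The difference of HDC-A from HDC-M was 0.18 (95% interval -0.0054 to 0.37; limma adjusted p = 0.339). The other Dnmt3a probes did not separate these groups. A_52_P169048 differed by 0.0011 and A_52_P30497 by 0.041. For HDC-S against HDC-M the 3 probes gave 0.039, 0.015 and -0.027, with adjusted p-values from 0.889 to 0.962. Dnmt3a thus showed no difference on which its probes agreed.

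Dnmt3b, the other de novo enzyme, was dim, at 1.35 to 1.61 times the negative controls in tumours and 0.926 to 1.07 times in culture. Its ratios were 0.70, 0.37 and 0.27 in HDC-S, 0.34, 0.18 and 0.13 in HDC-M and 0.18, 0.30 and 0.18 in HDC-A. The HDC-S pools were the highest on average, and replicate 1 alone lay apart from the other 8 values. The difference was 0.23 against HDC-M (95% interval -0.016 to 0.47; limma adjusted p = 0.380) and 0.23 against HDC-A (limma adjusted p = 0.300). It was 0.10 for HDC-S against HDC-M without HDC-S replicate 1, and 0.039 with the tumour channel alone. HDC-A and HDC-M differed by 0.0016.

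Mbd2, which reads methylated CpG, was at 4.71 to 7.05 times the negative controls in tumours. Its ratios were 0.15, 0.29 and 0.16 in HDC-M, 0.14, 0.15 and 0.31 in HDC-S and 0.072, -0.10 and 0.25 in HDC-A. All 3 groups overlapped. HDC-S and HDC-M differed by 0.0017 (95% interval -0.21 to 0.21; limma adjusted p = 0.996). HDC-A differed from HDC-M by -0.13 (-0.34 to 0.086; limma adjusted p = 0.589).

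Tet2, which oxidises methylcytosine, was read by 2 probes, and both placed the groups in the same way. On A_51_P340083 the ratios were 0.32, 0.31 and 0.23 in HDC-M, 0.46, 0.61 and 0.55 in HDC-A and 0.35, 0.56 and 0.50 in HDC-S. On A_52_P502083 they were 0.0028, 0.061 and 0.067 in HDC-M, 0.21, 0.34 and 0.32 in HDC-A and 0.12, 0.23 and 0.12 in HDC-S. On both probes every HDC-M pool lay below every pool of the modified variants, while HDC-A and HDC-S overlapped. The difference of HDC-A from HDC-M was 0.26 (SE 0.071, 95% interval 0.096 to 0.42) and 0.25 (SE 0.061, 0.11 to 0.39). The limma adjusted p-values were 0.115 and 0.0809, and neither passed. The difference of HDC-S from HDC-M was 0.19 (limma adjusted p = 0.267) and 0.11 (limma adjusted p = 0.445). Groups of 3 arrays separated upwards in this way in 11.9% of probes for HDC-S against HDC-M, where 2 of the 9 methylation probes did so. For HDC-A against HDC-M the share was 10.2%, and 3 of the 9 did so, the third being a Dnmt3a probe. These 2 comparisons share the HDC-M arrays, so a low value there shows in both. Both Tet2 probes were dim, at 1.27 to 2.27 times the negative controls in tumours and 1.03 to 1.12 in culture, so the denominator of each ratio is at background level.

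**Figure D3:**
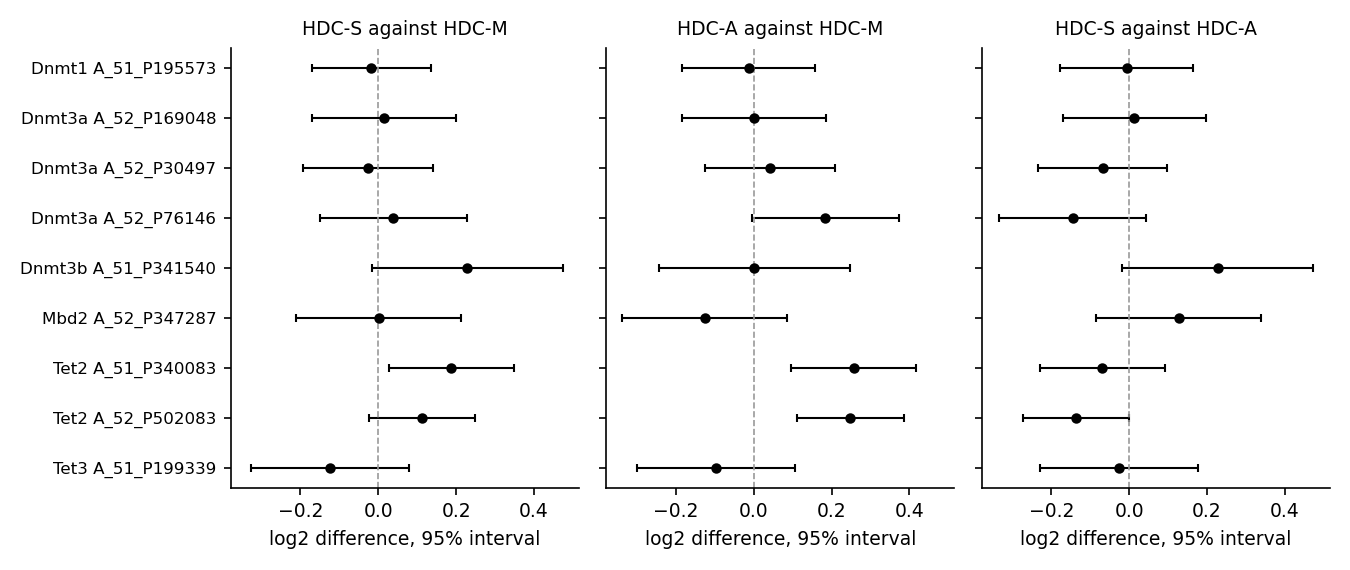
Differences between groups for the 9 probes of the methylation genes in the 3 comparisons, as log2 units with 95% intervals from limma (not adjusted for the number of probes). Most intervals include 0; those of Tet2 in HDC-A against HDC-M reach from 0.096 to 0.42 and from 0.11 to 0.39, and neither passed after adjustment over all probes.

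Markers of other cells are given beside Tet2. All 8 skeletal muscle markers had higher means in HDC-A than in HDC-M, with overlapping array means, a median difference of 1.12 and none past the threshold, and the array means were 1.73 to 3.36 in HDC-A and 1.31 to 1.92 in HDC-M. Of 8 macrophage markers, 7 had higher means in HDC-A and all 8 in HDC-S, with medians of 0.33 and 0.34 against HDC-M and none past the threshold. The macrophage array means were 1.27 to 2.22 in HDC-M, 1.84 to 2.55 in HDC-A and 1.92 to 2.45 in HDC-S. In HDC-S against HDC-M, 5 of the 8 muscle markers were higher, with a median of 0.099. Of 8 fibroblast markers, 7 were higher in HDC-A and 4 in HDC-S than in HDC-M, with medians of 0.53 and 0.031. Of 8 endothelial markers, 6 and 3 were higher, with medians of 0.21 and -0.017. Of 7 T and NK cell markers, 5 and 5 were higher, with medians of 0.13 and 0.10. None of these passed. The part of these cells in the Tet2 differences was not tested.

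Tet3, the other oxidising enzyme measured, was at the edge of detection. It was well above background in the tumour channel on 8 of 9 arrays, all but HDC-A replicate 2, at 1.09 to 1.26 times the negative controls. The ratios were 0.097, 0.15 and -0.095 in HDC-M, 0.084, -0.032 and -0.20 in HDC-A and -0.029, -0.16 and -0.034 in HDC-S. All groups overlapped around 0. HDC-S differed from HDC-M by -0.12 (95% interval -0.33 to 0.079; limma adjusted p = 0.584), and HDC-A differed from HDC-M by -0.097 (limma adjusted p = 0.675). At this brightness a change in Tet3 RNA could be missed. The other 9 member probes were well above background in the tumour channel on 9 of 9 arrays, and none was saturated.

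**Figure D4:**
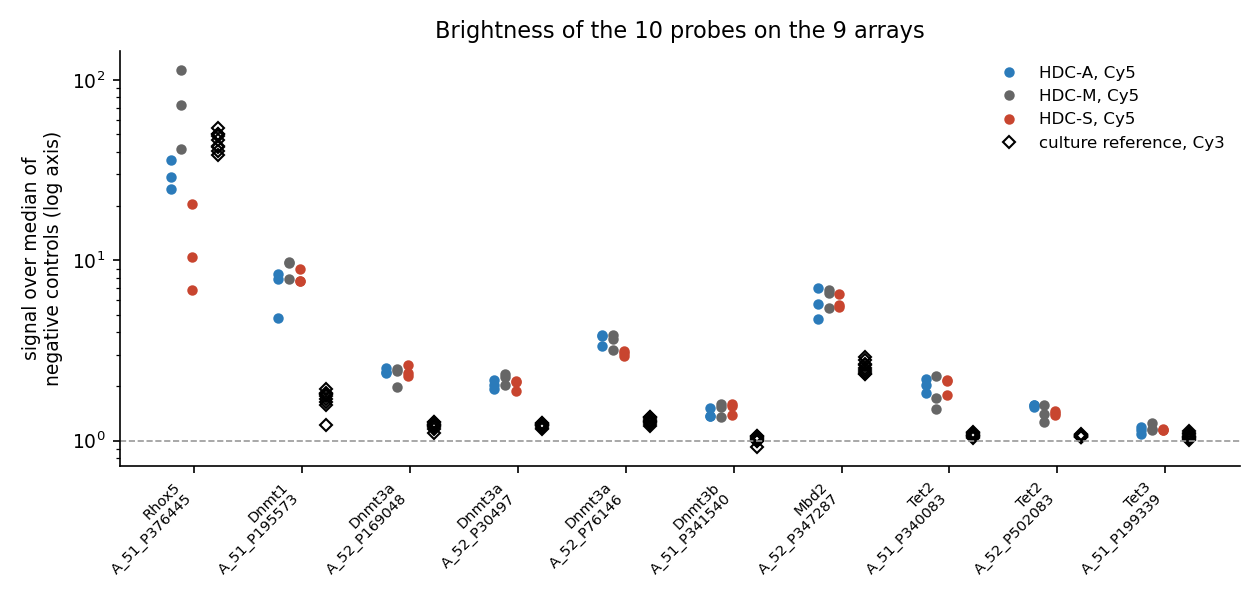
Brightness of the 10 member probes on the 9 arrays, as multiples of the median negative control on a log axis; filled points are tumour pools coloured by group and open diamonds the cultured reference. Rhox5 is the only member with a culture signal far above 1 (38.2 to 54.0), and Dnmt3b, Tet2 and Tet3 lie close to the negative controls; different probes are not compared as RNA levels.

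The partners of these enzymes are given from lists that were chosen with earlier results of these data known, with 1 probe per gene, and the counts are to be read against the background shares above. Of 16 partners of the methyltransferases, 14 passed the filter on dim probes, and limma called none of them in the 3 comparisons. Uhrf1, which brings Dnmt1 to hemimethylated DNA, had the largest difference between HDC-S and HDC-M among them, at -0.34 (SE 0.088; limma adjusted p = 0.121). Its mean ratio was 1.84 ± 0.097 in HDC-M, 1.63 ± 0.17 in HDC-A and 1.495 ± 0.040 in HDC-S (SD, n = 3), and a second Uhrf1 probe gave -0.36 (limma adjusted p = 0.0738). Uhrf1 RNA is known to follow cell division. The array means of 11 proliferation markers were 1.22 to 1.29 in HDC-M, 0.95 to 1.25 in HDC-A and 1.05 to 1.18 in HDC-S, and 9 of the 11 were lower in HDC-S than in HDC-M, with a median of -0.17. The part of cell division in the Uhrf1 difference was not tested. Dnmt3l, a cofactor of the de novo enzymes, differed by 0.0091 between HDC-S and HDC-M (limma adjusted p = 0.981). Over the 14 partners the median difference was -0.061 for HDC-S against HDC-M, beside 0.0092 for all probes.

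None of the 7 measured methyl-CpG readers other than Mbd2 passed, nor any of 6 genes of demethylation and repair. Zbtb4, a zinc finger reader, had the largest difference of the readers for HDC-S against HDC-M, at 0.36 (limma adjusted p = 0.495), and Gadd45b, a stress gene linked to demethylation, that of the repair genes, at 0.41 (limma adjusted p = 0.292). Tet1 had no named probe. Of 9 genes that supply the methyl donor or 2-oxoglutarate, 1 passed, and only in HDC-S against HDC-A, where 5.26% of all probes passed. This was Mat2a, which makes S-adenosylmethionine, lower by a log2 difference of -0.33 in HDC-S against HDC-A (limma adjusted p = 0.0243) and by -0.21 against HDC-M (limma adjusted p = 0.188).

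Most other genes of the Rhox cluster, and most other germline genes known to be silenced by promoter methylation, had no probe or were too dim. Of 12 other genes of the Rhox cluster, 5 had a probe and 2, Rhox2a and Rhox9, passed the filter on dim probes. They differed by 0.0036 and 0.019 between HDC-S and HDC-M (limma adjusted p = 0.991 and 0.924). Both were dim, with mean log2 intensities over both dyes of 6.29 and 6.30. Tet3, at the edge of detection, had 6.19 to 7.01 on the arrays. A change in the RNA of these Rhox genes could thus be missed. Of 26 other germline genes, 22 had a probe and 6 passed the filter on dim probes. Among these Ddx4, an RNA helicase of germ cells, differed most between HDC-S and HDC-M, at -0.23 (limma adjusted p = 0.180). Its probe was dim too, with a mean log2 intensity of 6.54. Only Tuba3a, a testis-enriched tubulin, passed in a comparison, at 0.27 in HDC-S against HDC-A (limma adjusted p = 0.0464), and a second Tuba3a probe gave -0.20 (limma adjusted p = 0.558). That is 1 of the 6 genes, in a comparison where 5.26% of all probes passed. Of the markers of germ and Sertoli cells, where Rhox5 is normally made, Dazl, Sycp3 and Wt1 were too dim to be tested, and the other 3 gave array means between -0.48 and -0.013.

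Of 13 imprinted genes measured, whose alleles are held apart by methylation, Igf2r was lower in HDC-S than in HDC-M by a log2 difference of -0.84 (limma adjusted p = 0.00436) and than in HDC-A by -0.95 (limma adjusted p = 0.00152). Igf2r was named in earlier work on these tumours and is no independent evidence for the list. Cdkn1c, a cell cycle inhibitor, was lower in HDC-S than in HDC-A by -0.54 (limma adjusted p = 0.0149) and passed in no other comparison. The median of the 13 was -0.017 for HDC-S against HDC-M and -0.20 for HDC-S against HDC-A, beside 0.0092 and 0.0045 for all probes. No other imprinted gene passed. The calls were thus 1 of 13 in HDC-S against HDC-M and 2 of 13 in HDC-S against HDC-A. Of all probes, 0.681% and 5.26% passed in these comparisons.

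Of 13 factors known to act on the Rhox5 promoters, 12 passed the filter on dim probes. Only those past the threshold in a comparison, or with the largest difference between HDC-S and HDC-M, are named. Gabpa, the ETS subunit of the factor GABP, had the largest difference of the list between HDC-S and HDC-M, at -0.26 (limma adjusted p = 0.122). It was lower in HDC-A than in HDC-M by -0.38 (limma adjusted p = 0.0347), while the other 2 Gabpa probes gave -0.19 and -0.14 and did not pass. Gabpb1, its partner subunit, was higher in HDC-S than in HDC-A by 0.34 (limma adjusted p = 0.0299), and its other probe gave 0.058 (limma adjusted p = 0.631). Neither passed in HDC-S against HDC-M. In HDC-A against HDC-M and in HDC-S against HDC-A, 1 of the 12 passed in each, beside 1.44% and 5.26% of all probes. Of 4 genes reported to respond to Rhox5 in the testis none passed, and the largest difference between HDC-S and HDC-M was that of Pltp, a phospholipid transfer protein, at 0.20 (limma adjusted p = 0.554).

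The genes whose ratios ran most like those of Rhox5 over the 9 arrays were sought among 995 probes with a range of at least 1 log2 unit. The highest Pearson correlations were those of Oca2 (0.97), a melanosome protein that sets pigment, Enho (0.89), the gene of the peptide adropin, and Ppargc1a (0.87), a transcriptional coactivator of mitochondrial genes. Elovl7 (0.84), a fatty acid elongase, and Cngb1 (0.80), a cation channel subunit, came next. Most opposed were Art3 (-0.94), Scarf1 (-0.90) and Pdzrn3 (-0.90). These are descriptions over 9 arrays that share their groups and reference, with no test. Oca2 was nearest, with ratios of 0.39, 0.69 and 0.37 in HDC-M, 0.10, 0.038 and 0.097 in HDC-A and -0.47, -0.37 and -0.76 in HDC-S. Its groups kept the order of Rhox5 with no overlap between HDC-M and HDC-A or between HDC-A and HDC-S, over a range smaller than that of Rhox5. Cngb1 did not share the step between HDC-M and HDC-A, with means of -0.00014 and 0.20, and was at -1.03 in HDC-S.

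**Figure D5:**
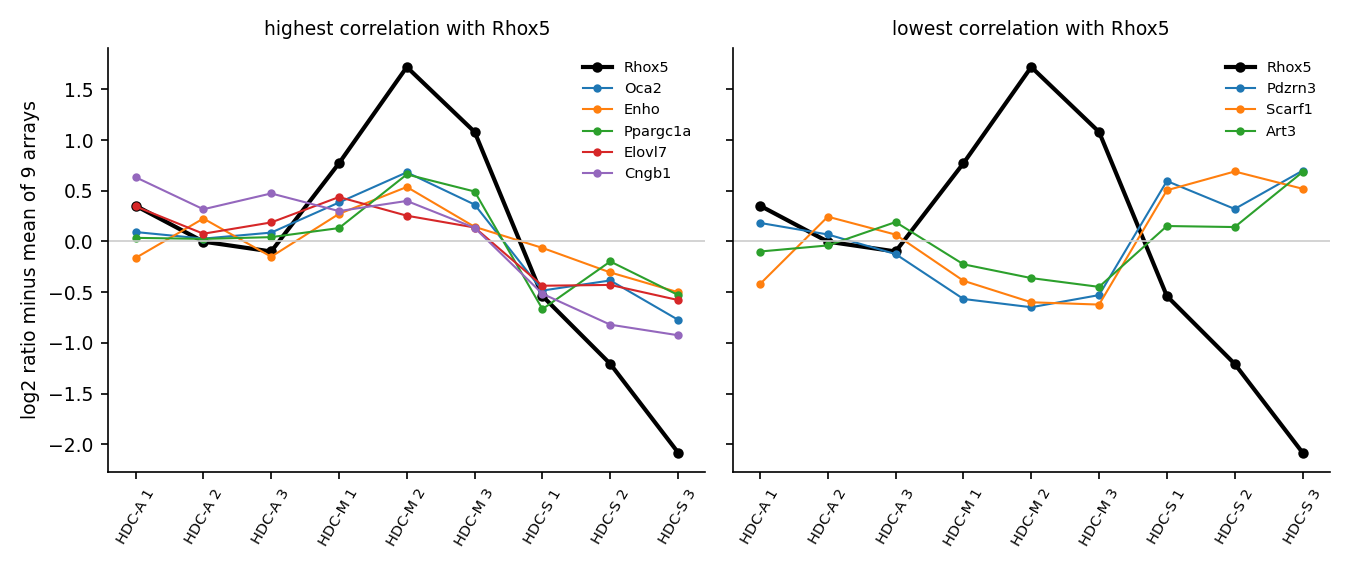
Log2 ratio minus the mean of the 9 arrays for Rhox5 (black) and for the 5 genes with the highest (left) and the 3 with the lowest (right) Pearson correlation with it; lines only join the points of a gene, since replicates have no order. Oca2 (r = 0.97) follows the 3 groups in the order of Rhox5, and Art3 (r = -0.94) runs the opposite way.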

How the data were processed

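Agilent 2-colour mouse arrays were read for 9 pools, 3 per group. Intensity values, both the mean of each spot and its local background in either dye, come from the deposited scanner files. The software was Agilent Feature Extraction 8.5.1.1, per the file headers. Other deposited columns mark spots as well above background, saturated or outlying. The authors' deposited value table holds log10 ratios of Cy5 over Cy3 equal to those of the scanner files and served as an alternative. The RNA of each pool was amplified before labelling, per the labels' protocols.

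Mean signals were corrected with normexp (offset 50) and normalised by loess in limma 3.58.1 (R 4.3.3). Control and outlier spots had weight 0 and were then left out, and spots of a probe were averaged. Probes well above background in Cy5 on at least 3 of 9 arrays were kept. All 9 arrays were fitted in one model without a block, with Benjamini-Hochberg adjustment over all probes kept. Exact permutation tests were two-sided over 10 splits. The fit was tested on simulated data.

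Probes were named through accessions (22072 and 142), symbols (676) or synonyms (1147) of a RefSeq gene table, and 17137 had none. The brightest probe stood for a gene in the lists. The members and lists were chosen with earlier results of these data known. The text names all member probes, list genes past the threshold, the largest difference of each list in HDC-S against HDC-M, the partners Uhrf1, Dnmt3l and Tet1, and the 5 highest and 3 lowest correlations with Rhox5; probes next to Rhox5 in rank and second probes were added afterwards. Deviations of samples with the same replicate number correlated with r of 0.11 to 0.55 between HDC-A and HDC-S and of -0.19 to 0.15 in pairs with HDC-M. Not every pair was above 0.1, so the numbers were not taken to pair the samples. The pools are separate tumours per the labels; their number limits the precision. Alternatives were background correction, normalisation, ratio, channel, filter, scan day, replicate block and leaving out each array. Promoter windows came from RefSeq tables for GRCm38.p6. The build behind the probe design is not given in the sources used here.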

Additional observations from a re-analysis of the deposited data

How the results depend on the processing

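Rhox5 kept its direction in all 57 refits, 19 for each comparison. Where arrays were only left out it could not do otherwise, since its groups did not overlap. Another filter, or a block for scan day or replicate, left the difference unchanged, so its direction was fixed there too. The direction could have changed only with other background correction, normalisation, ratio or channel. The Rhox5 difference ranged from -2.91 to -2.05 for HDC-S against HDC-M, from -1.55 to -0.70 for HDC-A against HDC-M and from -1.73 to -0.96 for HDC-S against HDC-A. The number of member probes past the limma threshold in HDC-S against HDC-M was 1, Rhox5, which had been chosen for it, so the count is no evidence for the gene. It was 0 with median centring, with scaling between arrays, in the authors' value table, with Cy5 alone and with the arrays of the first scan day. Omitting single arrays gave 0 to 1 in that comparison, with 0 without HDC-M replicate 1, 2 or 3 or HDC-S replicate 2 or 3. In HDC-S against HDC-A the number was 0 and became 1, Rhox5, with scan day as a block and without HDC-S replicate 1 (-1.73). Leaving out single arrays thus gave 0 to 1 there. That comparison uses the HDC-S arrays for which the gene was chosen, so its count is no evidence for the gene either. In HDC-A against HDC-M the number was 0 throughout. The cause of these changes was not tested.

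With the replicate block the numbers were 1, 0 and 0, as without it. Deviations of samples with the same number correlated with r from -0.19 to 0.55, and the block moved the count of all probes past the threshold from 183 to 70 in HDC-S against HDC-M, from 387 to 193 in HDC-A against HDC-M and from 1412 to 1126 in HDC-S against HDC-A.

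Tet3 had no value when probes had to be well above background on all 9 arrays. No methylation probe passed in any of 510 refits, of which 68 changed the sign of a difference that was not called and 45 moved it by more than the spread between replicates. Both Tet2 probes stayed above HDC-M in HDC-A and in HDC-S in every refit, at 0.13 to 0.32 and 0.13 to 0.47 in HDC-A against HDC-M. Leaving out arrays could not change this direction, since those groups did not overlap. Another filter or a block left these differences unchanged, so the direction was fixed there too. Median centring moved the median of all probes to -0.12 in HDC-S against HDC-M and -0.11 in HDC-A against HDC-M, and the Rhox5 and Tet2 values are to be read relative to it there. It left 5, 2 and 4 probes past the threshold in HDC-S against HDC-M, HDC-A against HDC-M and HDC-S against HDC-A. Scaling left 39, 54 and 165, and the ratios of the authors' value table gave 7, 18 and 392. Cy5 alone left 13, 258 and 632, and the first scan day 30, 5 and 9. The signal over background limits Dnmt3b, Tet2 and Tet3 most, and the culture signal of Dnmt3a was close to background as well.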
